A study of Mus musculus with 14 samples.

Results

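The immediate early genes described here are Fos, Fosb, Jun, Junb, Egr1, Ier2, Atf3, Dusp1, Zfp36 and Nr4a1. They were taken by gene symbol, 10 of the 27099 gene rows in the table, and all 10 were among the 18152 genes that passed the filter on low counts. Their RNA was measured in bone marrow stromal cells (BMSCs) sorted by GFP from Nes-GFP mice, in which regulatory elements of the nestin gene drive GFP, so a sorted cell is defined by that reporter and not by nestin protein. AML mice carried the iMLL-AF9 transgenes (rtTA with a doxycycline-inducible MLL-AF9 fusion), received doxycycline and were killed once the leukemia was evident, and normal mice received sucrose water. The 14 libraries comprised 2 of Nes-GFP high cells from AML mice, 2 of Nes-GFP high cells from normal mice, 4 of Nes-GFP low cells from AML mice and 6 of Nes-GFP low cells from normal mice. AML and doxycycline went together and cannot be told apart. Some libraries were pools of mice where cells were few, and the labels do not say which or whether all replicates of a group were separate mice, so p-values measure the spread between these libraries. Age and sex are not given by library.

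Immediate early genes are transcribed within minutes of a stimulus, without new protein synthesis, when MAP kinases and calcium or cAMP signaling activate factors that already sit on their promoters, chiefly serum response factor with its ETS partners and CREB. Their short-lived mRNAs encode transcription factors that start a second wave of transcription, together with phosphatases and RNA-binding proteins that end the response. Tissue dissociation is a known trigger of these genes, and of heat shock genes, in cells isolated from solid tissue. All 14 libraries came from bones crushed in collagenase and from sorted cells, so levels before and after these steps cannot be told apart.

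The libraries held 5615941 to 11436652 counts, and no member had fewer than 367 counts in any library. A level is given below as CPM, the count scaled to a common library size, after TMM scaling, which evens out differences in RNA composition. Before the members are described, 3 facts about the libraries bear on them. Nes itself was at 26.68 to 36.03 CPM in 3 of the 4 Nes-GFP high libraries but at 2.269 CPM in normal Nes-GFP high replicate 1, inside the range of 0 to 5.700 CPM over the 10 libraries of Nes-GFP low cells. All 11 stroma markers had counts in each group, yet their summed level ranged from 700.2 CPM in AML Nes-GFP low replicate 3 to 65010 CPM in normal Nes-GFP low replicate 2. The 12 myeloid markers summed to 96220 CPM in AML Nes-GFP low replicate 3, 102600 CPM in normal Nes-GFP low replicate 3, 50950 CPM in normal Nes-GFP low replicate 4 and 34070 CPM in normal Nes-GFP high replicate 1, against 706.0 to 18870 CPM in the other 10, although the cells were sorted as CD45 negative.

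RefSeq promoters (GRCm38.p6) were matched for 8 of the 10 members, all but Egr1 and Ier2. Those of Fos, Dusp1, Nr4a1 and Zfp36 are shown because these genes include members whose levels followed each other across libraries and the one that followed the others least, Nr4a1. Each runs from 150 bases before the transcription start through the first 10 transcribed bases, and capitals mark TGACG on either strand (CGTCA when read on the gene's strand), the core of the CREB and ATF binding site, or the CArG box of serum response factor.
Fos, chr12:85473740-85473899, plus strand: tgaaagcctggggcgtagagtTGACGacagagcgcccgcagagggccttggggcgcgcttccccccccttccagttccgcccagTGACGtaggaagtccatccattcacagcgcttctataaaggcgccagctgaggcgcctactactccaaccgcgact
Dusp1, chr17:26508463-26508622, minus strand: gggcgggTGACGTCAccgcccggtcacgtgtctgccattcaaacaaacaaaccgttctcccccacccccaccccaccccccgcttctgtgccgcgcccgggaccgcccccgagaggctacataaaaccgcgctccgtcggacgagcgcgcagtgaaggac
Nr4a1, chr15:101266696-101266855, plus strand: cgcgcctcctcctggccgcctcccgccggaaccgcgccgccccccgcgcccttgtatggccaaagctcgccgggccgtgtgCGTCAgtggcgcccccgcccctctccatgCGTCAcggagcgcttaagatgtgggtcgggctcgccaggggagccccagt
Zfp36, chr7:28379219-28379378, minus strand: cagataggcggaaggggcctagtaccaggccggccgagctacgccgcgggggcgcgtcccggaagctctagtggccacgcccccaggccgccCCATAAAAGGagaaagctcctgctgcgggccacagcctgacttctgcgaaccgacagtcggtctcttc

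In the full promoter windows of 300 bases, TGACG was found on either strand in 6 of the 8 matched members (Fos, Fosb, Junb, Atf3, Dusp1 and Nr4a1) and in 20.8% of all 32851 promoters searched. The complete palindrome TGACGTCA, which overlaps it, was present in Dusp1 alone among the 8, against 1.79% of all promoters. A CArG box was found only in Zfp36, from base -58 to -49 before the start, against 1.63% of all promoters. The AP-1 motif TGANTCA was in none of the 8 windows (7.81% of all promoters). A match describes the letters in these windows and is not a measured binding site. Bases further upstream and the promoters of Egr1 and Ier2 were not searched. A motif missing here can therefore lie outside the window, and its absence does not show that a gene lacks such a site.

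Turnover also shapes an immediate early response, because AU-rich elements in the 3′ UTR shorten the life of the mRNA. Zfp36, itself a member, encodes tristetraprolin, a protein that binds UAUUUAU and recruits mRNA decay factors. The DNA form TATTTAT was found in the 3′ UTR of 6 of the 10 members (GENCODE, GRCm38) and in 26.1% of the 20738 genes searched. Dusp1 and Zfp36 each held 3 copies and Fos 2, and as many copies were found in 1.34%, 1.24% and 4.40% of genes with a 3′ UTR of similar length, in that order. Windows of 30 bases from these 3 genes are shown, with TATTTAT in capitals.
Fos, chr12:85477102-85477131, plus strand: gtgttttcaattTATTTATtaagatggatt
Dusp1, chr17:26506159-26506188, minus strand: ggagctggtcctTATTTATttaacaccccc
Zfp36, chr7:28376958-28376987, minus strand: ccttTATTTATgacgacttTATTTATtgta

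The members were abundant in every group, and libraries of the same group differed widely. Together they took 0.326% to 2.69% of a library's counts, and Fos ranked 13th of the 18152 tested genes by mean CPM. In Nes-GFP high cells their summed level was 30760 and 7893 CPM for AML mice, and 12300 and 6187 CPM for normal mice. In Nes-GFP low cells it was 17790, 23080, 8561 and 2983 CPM in AML mice, while the 6 normal libraries stood at 28270, 27220, 9711, 11840, 5964 and 5419 CPM in replicates 1 to 6. The groups overlapped, with 1 high AML Nes-GFP high library and pairs of high libraries in both Nes-GFP low groups. In bulk samples such as these, fewer cells expressing a gene and less RNA per cell cannot be told apart.

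**Figure D1:**
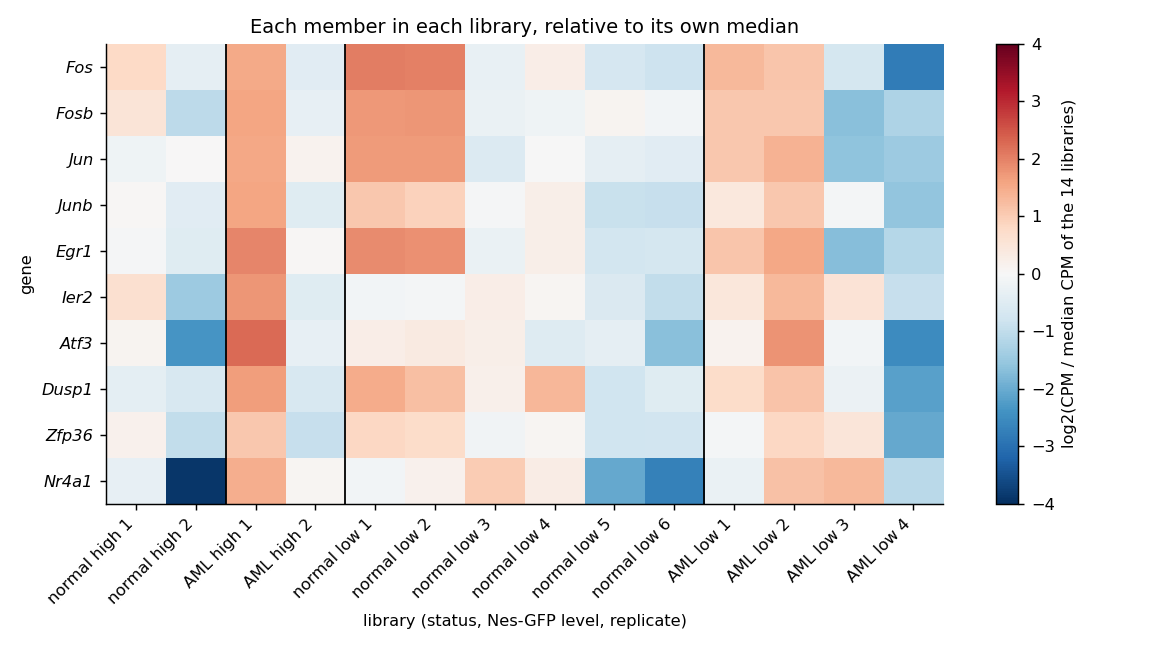
Level of each of the 10 members (rows) in each of the 14 libraries (columns, grouped by status and Nes-GFP level with vertical lines between groups), as the log2 of its CPM over the gene's median CPM of the 14 libraries. Whole columns are red or blue: AML Nes-GFP high replicate 1 held the highest level of 7 members, AML Nes-GFP low replicate 4 the lowest of 5, and normal Nes-GFP low replicates 1 and 2 the highest Fos, Jun and Fosb.

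Fos and Fosb encode the partners that need a Jun protein to bind DNA as AP-1. Fos stood at 8442 and 2147 CPM in Nes-GFP high cells of AML mice and at 5132 and 2284 CPM in those of normal mice. In Nes-GFP low cells it was at 7216, 6330, 1812 and 417.8 CPM in AML mice and ranged from 1654 to 12160 CPM (median 2923) in normal mice. The groups overlapped in both populations, and the normal Nes-GFP low libraries fell into 2 with 11830 and 12160 CPM and 4 at or below 3487 CPM. Fosb followed at a lower level, with 1058 and 277.2 CPM in AML and at 501.8 and 169.3 CPM in normal Nes-GFP high cells. Among Nes-GFP low libraries Fosb was at 734.8, 733.9, 110.3 and 150.4 CPM in AML mice and at 289.1 to 1202 CPM (median 351.3) in normal mice, where 2 AML libraries lay below every normal one and 2 inside the normal range.

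Jun and Junb encode AP-1 subunits that can pair with Fos proteins, and JunB often counteracts c-Jun at shared targets. Jun was at 1565 and 584.2 CPM in AML and at 471.5 and 541.5 CPM in normal Nes-GFP high cells, so that both AML libraries lay above both normal ones, the lower of them by a narrow margin. Its Nes-GFP low levels were 1116, 1382, 174.6 and 194.7 CPM in AML mice and 364.1 to 1723 CPM (median 466.3) in normal mice. The AML Nes-GFP low group thus held both high and very low libraries. Junb was at 4425 and 1039 CPM in AML and at 1529 and 1062 CPM in normal Nes-GFP high cells, the second AML library lying just under the lower normal one. Nes-GFP low libraries held 1952, 3076, 1397 and 496.0 CPM in AML mice and 780.4 to 3130 CPM (median 1560) in normal mice.

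Atf3, a stress-induced member of the ATF and CREB family that dimerizes with Jun proteins, had the widest spread among the AP-1 genes after Fos. It was at 2071 and 339.0 CPM in AML and at 459.8 and 83.68 CPM in normal Nes-GFP high cells, with the AML libraries on both sides of the higher normal one. Levels in Nes-GFP low cells were 470.7, 1492, 395.8 and 74.14 CPM in AML mice and 133.6 to 547.3 CPM (median 417.5) in normal mice. One AML Nes-GFP low library therefore exceeded all 6 normal ones and another lay below all 6.

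Egr1, a zinc finger transcription factor induced by serum and growth factors, stood at 5762 and 1530 CPM in AML and at 1447 and 1068 CPM in normal Nes-GFP high cells. Both AML libraries were above both normal ones, 1 far above and 1 by a small margin. Its levels in Nes-GFP low cells were 3223, 4372, 455.2 and 670.5 CPM in AML mice and 890.6 to 5479 CPM (median 1500) in normal mice, a range that the AML group exceeded only at its lower end. Ier2, a nuclear protein of the early serum response, was at 2092 and 436.9 CPM in AML and at 962.5 and 226.4 CPM in normal Nes-GFP high cells. Its Nes-GFP low levels were 839.4, 1527, 904.6 and 328.0 CPM in AML mice and 311.1 to 734.6 CPM (median 581.8) in normal mice, so 3 of the 4 AML libraries exceeded every normal one and the fourth lay inside their range.

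Nr4a1 encodes Nur77, an orphan nuclear receptor that acts without a known physiological ligand. It was at 2101 and 820.8 CPM in AML and at 607.7 and 52.05 CPM in normal Nes-GFP high cells, with no overlap. Among Nes-GFP low libraries it was at 646.2, 1723, 1888 and 362.1 CPM in AML mice and 117.1 to 1549 CPM (median 791.8) in normal mice, with overlap. The span of 40.4-fold between its highest and lowest library was the widest of the 10 members, whose spans began at 8.72-fold for Zfp36.

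Dusp1 and Zfp36 are the members that close the response. Dusp1 encodes a nuclear phosphatase that inactivates MAP kinases, and it was at 1820 and 365.2 CPM in AML and at 432.5 and 362.0 CPM in normal Nes-GFP high cells. Nes-GFP low cells had 953.8, 1238, 478.1 and 125.8 CPM in AML mice and 326.9 to 1603 CPM (median 984.6) in normal mice. The second AML Nes-GFP high library lay between the 2 normal ones and the first was far above them. Zfp36 was at 1424 and 354.1 CPM in AML and at 760.0 and 337.4 CPM in normal Nes-GFP high cells. Its Nes-GFP low levels were 636.0, 1205, 945.8 and 163.3 CPM in AML mice and 386.7 to 1192 CPM (median 663.0) in normal mice, and the groups overlapped in both populations.

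**Figure D2:**
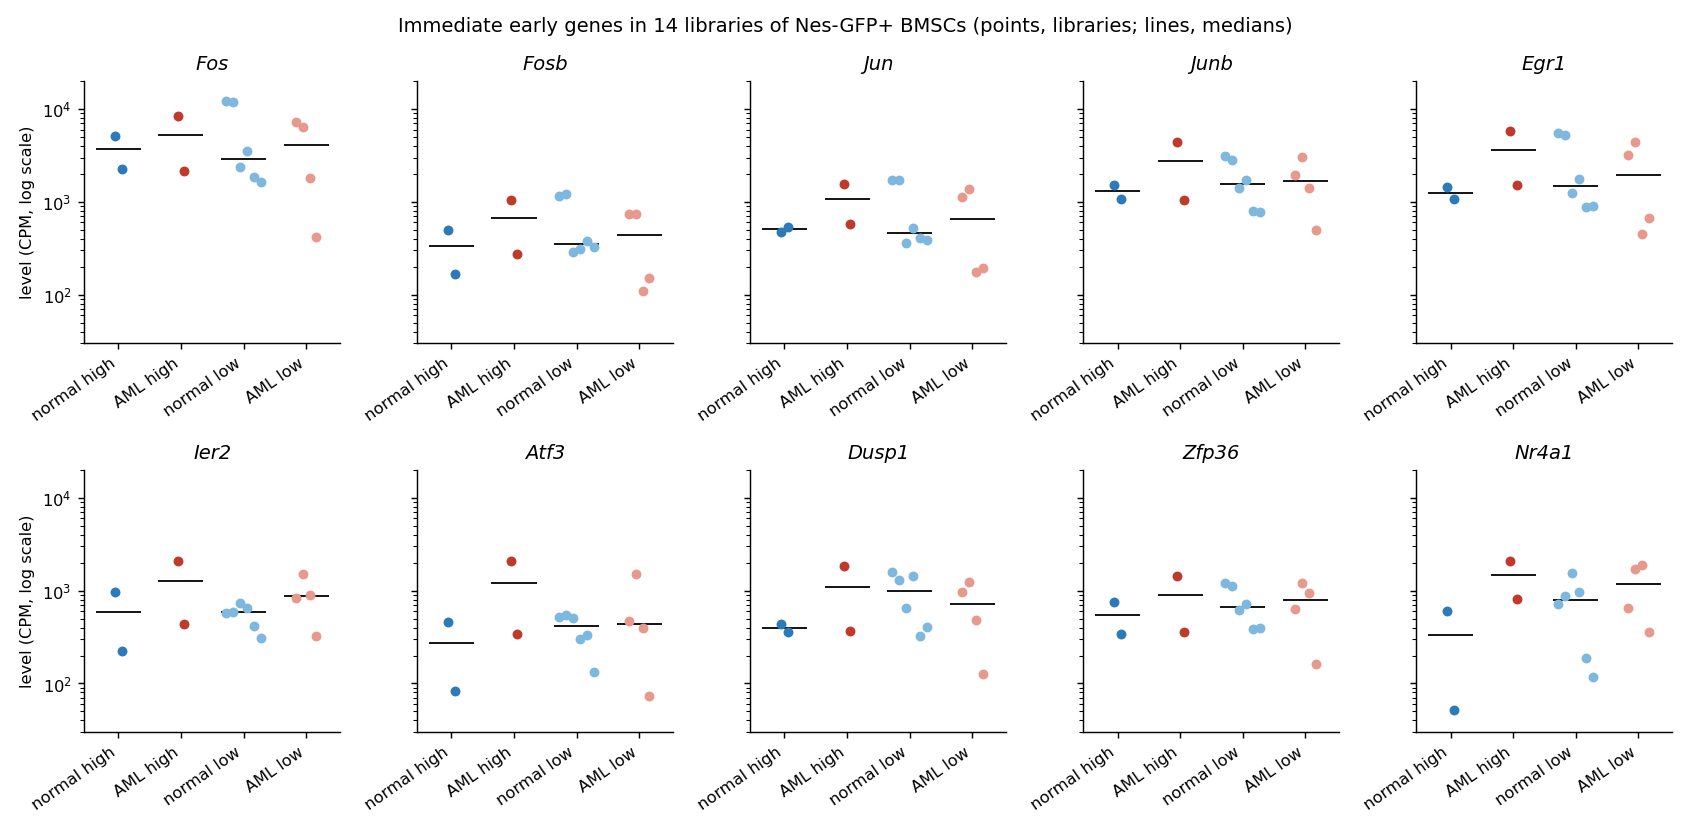
CPM of each member on a log axis (1 panel a gene), with 1 point for each library, ordered by replicate number within a group, and a line at each group's median. Points of a group spread over as much as 20.1-fold (Atf3 in AML Nes-GFP low cells), and the groups are apart only for Jun, Egr1 and Nr4a1 in Nes-GFP high cells.

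Compared per length, that is as CPM per kilobase of exon, Fos was the most abundant member and Fosb mostly the least. The length was that of all annotated exons of a gene merged, 3470 bases for Zfp36 and 6243 for Fosb. It can exceed the length of the mRNA present, so the order below depends on this choice. The median over the 14 libraries was 1243 CPM per kilobase for Fos, 638.4 for Junb, 404.9 for Ier2 and 331.9 for Egr1. Nr4a1 (219.5), Atf3 (198.7), Zfp36 (194.1), Dusp1 (171.4) and Jun (166.7) followed within a narrow band, and Fosb came last with 56.27. Fos was first in 13 of the 14 libraries and Junb in 1, while the place of Nr4a1 moved between the fourth and the last, so the genes in that band had no fixed order. Whether reads were counted by strand is not given in the sources used here, and Jun, Junb, Dusp1 and Zfp36 share 232, 173, 11 and 125 exonic bases with a gene on the opposite strand (Junos, Prdx2, Ergic1 and Gm44710), whose reads could be included.

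In Nes-GFP high cells, AML was compared with normal mice to ask whether leukemia changed the stromal cells. All 10 members had a fitted level above normal, and none passed the test (edgeR's quasi-likelihood test, 2-sided, Benjamini-Hochberg adjustment over 18152 genes). The log2 fold change was largest for Atf3 (2.15, standard error 1.20, adjusted p = 0.480) and Nr4a1 (2.15, standard error 1.26, adjusted p = 0.505) and smallest for Fos (0.51, standard error 1.23, adjusted p = 0.988). Between them lay Egr1 (1.54), Dusp1 (1.46), Ier2 (1.09), Jun (1.08), Junb (1.08), Fosb (0.99) and Zfp36 (0.70). The median of the 10 was 1.09, beside 0.08 over all tested genes. edgeR called 0% of all tested genes here, with 2209 at an unadjusted p under 0.05 and 0 of the members among them, and limma voom called 0. DESeq2 called 10.5% of 15167 genes and again 0 of the 10 members.

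The 2 AML Nes-GFP high libraries lay above both normal ones for Jun, Egr1 and Nr4a1, 3 of 10 members, where 16% of all tested genes did so. None of the members had both AML libraries below both normal ones (11.5% of tested genes). AML replicate 1 was above AML replicate 2 for all 10 members, as normal replicate 1 was above normal replicate 2 for 9 (all but Jun). Sums of stroma, erythroid and lymphoid markers were also apart between these groups, while those of myeloid and endothelial markers overlapped. Stroma markers summed to 4730 and 39020 CPM for AML mice against 59950 and 58010 CPM for normal mice. In normal replicate 1 most of that sum was Col1a1, at 51900 CPM, against 4475 CPM in AML replicate 2. The separation of the stroma sums rests on Col1a1 in normal replicate 1. Erythroid markers, 9 of 10 in the table, summed to 46.21 and 9.311 CPM for AML mice against 2776 and 130.5 CPM for normal mice, and the 8 lymphoid markers to 9.044 and 7.533 CPM against 470.5 and 20.28 CPM. Their part was not tested. Without AML replicate 1 the median log2 fold change of the members was -0.23, and Fos, Fosb, Junb, Ier2, Dusp1 and Zfp36 turned negative, while Jun, Egr1, Atf3 and Nr4a1 stayed above 0. Jun, Egr1 and Nr4a1 still had AML above normal libraries, 3 of 10 members beside 31.7% of tested genes, and the same 3 did without normal replicate 2 (38.2%). The log2 fold change of Atf3 ranged from 0.28 without AML replicate 1 to 3.93 without normal replicate 1, and that of Nr4a1 from 1.21 without normal replicate 2 to 4.90 without normal replicate 1. Jun ranged from 0.18 and Egr1 from 0.26 without AML replicate 1 to 1.59 and 2.15 without AML replicate 2. With normal replicate 1, whose Nes was low, left out, the median was 1.77 and 8 of 10 members lay above the remaining normal library (27.5% of tested genes), and with AML replicate 2 left out all 10 lay above both normal libraries (35.2%).

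The same comparison in Nes-GFP low cells gave small fitted differences in both directions. Ier2 (0.72, standard error 0.53), Nr4a1 (0.66, standard error 0.77) and Atf3 (0.64, standard error 0.74) had a log2 fold change above 0. The other 7 lay between -0.50 for Fosb and -0.00105 for Zfp36, and the members' median was -0.14 beside 0.0034 over all genes. The adjusted p was 1.0 for each of the 10 (edgeR), which called 0% of all genes, with 1006 genes and 0 members at an unadjusted p under 0.05. DESeq2 called 0.681% of 17326 genes, limma voom 0, and neither called a member. The AML libraries were above all normal ones for none of the members (0.441% of tested genes) and below them for none (0.667%). Without the 3 Nes-GFP low libraries rich in myeloid markers (AML replicate 3 and normal replicates 3 and 4), a setting chosen after seeing the data, the median was -0.19 and again 0 members passed.

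Nes-GFP high and low cells of normal mice were compared next. Of the 10 members, 9 had a lower fitted level in Nes-GFP high cells, from -0.43 for Zfp36 to -1.27 (standard error 0.89, adjusted p = 0.582) for Dusp1 on the log2 scale, and Ier2 was at 0.12 (standard error 0.67, adjusted p = 0.977). The median of -0.67 stood beside -0.27 over all tested genes, and it was -1.44 without normal Nes-GFP high replicate 1. None passed, and the groups overlapped for each member, where 3.47% of tested genes had both Nes-GFP high libraries above all 6 low ones and 7.86% had both below. edgeR called 0% of genes (2042 at an unadjusted p under 0.05, 0 of them members), limma voom 0, and DESeq2 11% of 15770 genes with 0 members.

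The corresponding comparison in AML mice had the opposite fitted direction. All 10 members had a log2 fold change above 0 in Nes-GFP high cells, from 0.27 for Zfp36 to 0.99 (standard error 0.97, adjusted p = 0.780) for Atf3, with a median of 0.61 beside -0.10 over all tested genes. None passed and none had groups that were apart, where 6.91% of tested genes had both Nes-GFP high libraries above all 4 low ones and 8.83% had both below. edgeR called 0% of genes (1629 at an unadjusted p under 0.05, 0 of them members), limma voom 1 gene that is no member, and DESeq2 7.05% of 15465 genes with 0 members. Without AML Nes-GFP high replicate 1 all 10 members turned negative, with a median of -0.80.

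Whether the AML difference itself differed between Nes-GFP high and low cells was tested as an interaction in the same fit. The difference, high minus low, was above 0 for all 10 members, from 0.37 (standard error 0.98) for Ier2 to 1.91 (standard error 1.21, adjusted p = 0.672) for Dusp1, with a median of 1.41 beside 0.14 over all genes. None passed in edgeR (0% of genes called, 1808 at an unadjusted p under 0.05 with 0 members, and 0 by limma voom), and DESeq2 called 5.06% of 15167 genes with 0 members. The comparisons share groups of libraries, so their directions do not stand as separate evidence, and without AML Nes-GFP high replicate 1 the median of this difference was -0.08.

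**Figure D3:**
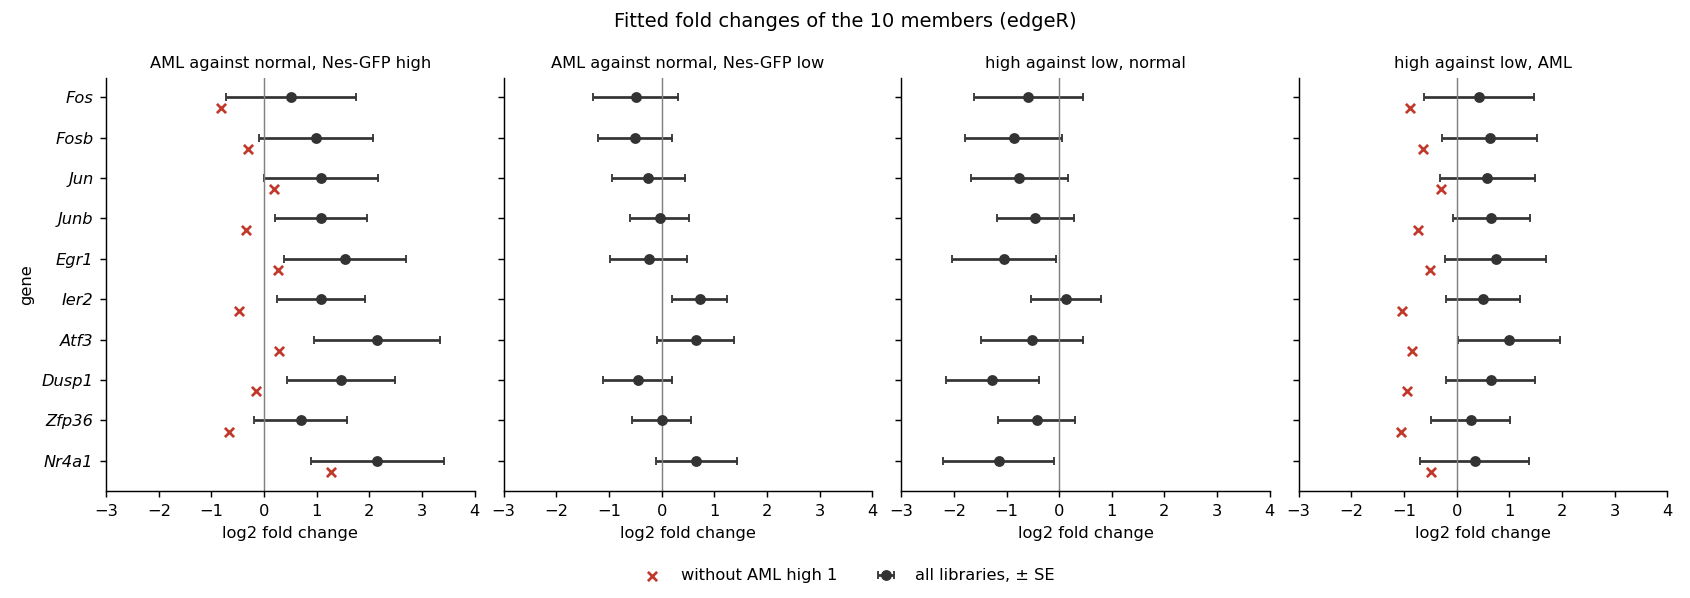
Log2 fold change of each member in 4 comparisons (edgeR, black points with bars of 1 standard error) and, in red crosses, the value without AML Nes-GFP high replicate 1 where that library takes part. The largest values are 2.15 for Atf3 and Nr4a1 in the first panel, and the crosses fall below 0 for 6 members in the first panel and for all 10 in the last.

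The members followed each other across the 14 libraries. Over their 45 pairs, Spearman's rho of the levels ran from 0.165 (Fosb with Nr4a1) to 0.938 (Fos with Junb), with a median of 0.754, as a description of libraries that differ also in depth, composition and status. Junb followed the mean of the other 9 most closely (rho 0.960), then Atf3 (0.908), Fos (0.890) and Zfp36 (0.890). Nr4a1 followed it least (0.644), with Ier2 (0.714) and Jun (0.736) next. Jun and Egr1 kept the tightest proportion of the ratios computed, between 0.272 and 0.507 in all 14 libraries.

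Other ratios shifted from library to library. Junb over Jun was 8.0 in AML Nes-GFP low replicate 3 and 1.63 to 3.87 elsewhere. Its 4 highest values (8.0, then 3.87 and 3.28 in normal Nes-GFP low replicates 3 and 4, and 3.24 in normal Nes-GFP high replicate 1) belonged to the 4 libraries with the highest sums of myeloid markers given above, whose part in the ratio was not tested. Fos over Nr4a1 spanned 45.7-fold, from 0.960 in AML Nes-GFP low replicate 3 to 43.9 in normal Nes-GFP high replicate 2. In Nes-GFP high cells this ratio was 4.02 and 2.62 in AML mice and 8.44 and 43.9 in normal mice. The value of 43.9 rests on the lowest Nr4a1 level of all libraries, 52.05 CPM. Nr4a1 alone was already apart between these groups, as 16% of tested genes were in its direction, so the ratio is no separate result.

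**Figure D4:**
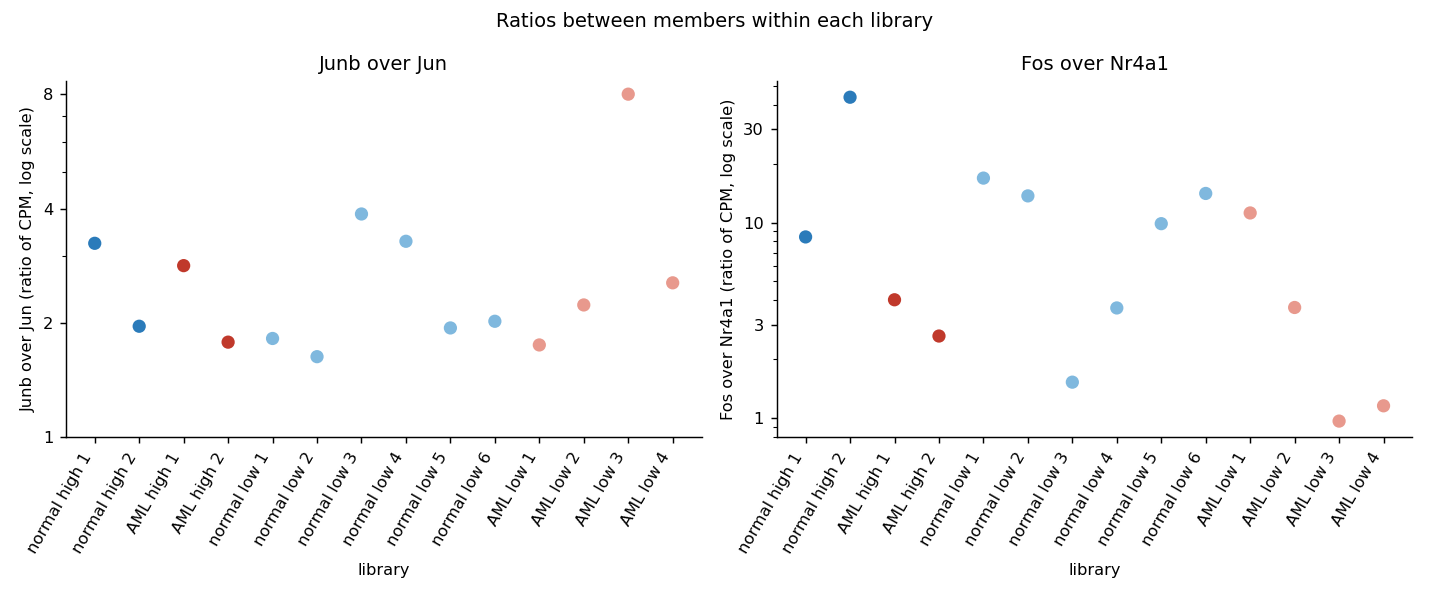
Ratio of Junb to Jun (left) and of Fos to Nr4a1 (right) in each library, from CPM, on log axes, with points colored by group. Junb over Jun stands at 8.0 in AML Nes-GFP low replicate 3, and Fos over Nr4a1 ranges from 0.960 to 43.9.

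Heat shock genes, whose chaperones refold damaged proteins, were high in the 2 libraries that led their AML groups for most members. The 12 heat shock genes summed to 14510 CPM in AML Nes-GFP high replicate 1 and 9632 CPM in AML Nes-GFP low replicate 2, against 3203 to 5651 CPM in the other 12 libraries. Hspa1a, the inducible HSP70, was at 2816 and 1711 CPM in those 2 libraries. Normal Nes-GFP low replicates 1 and 2, with the highest Fos, Fosb and Jun, had only 3894 and 3977 CPM of heat shock genes and the highest sums of stroma markers (63960 and 65010 CPM). In the AML Nes-GFP high pair, stroma markers summed to 4730 CPM in replicate 1 and 39020 CPM in replicate 2. The part of heat shock or of cell makeup in the members' levels was not tested.

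**Figure D5:**
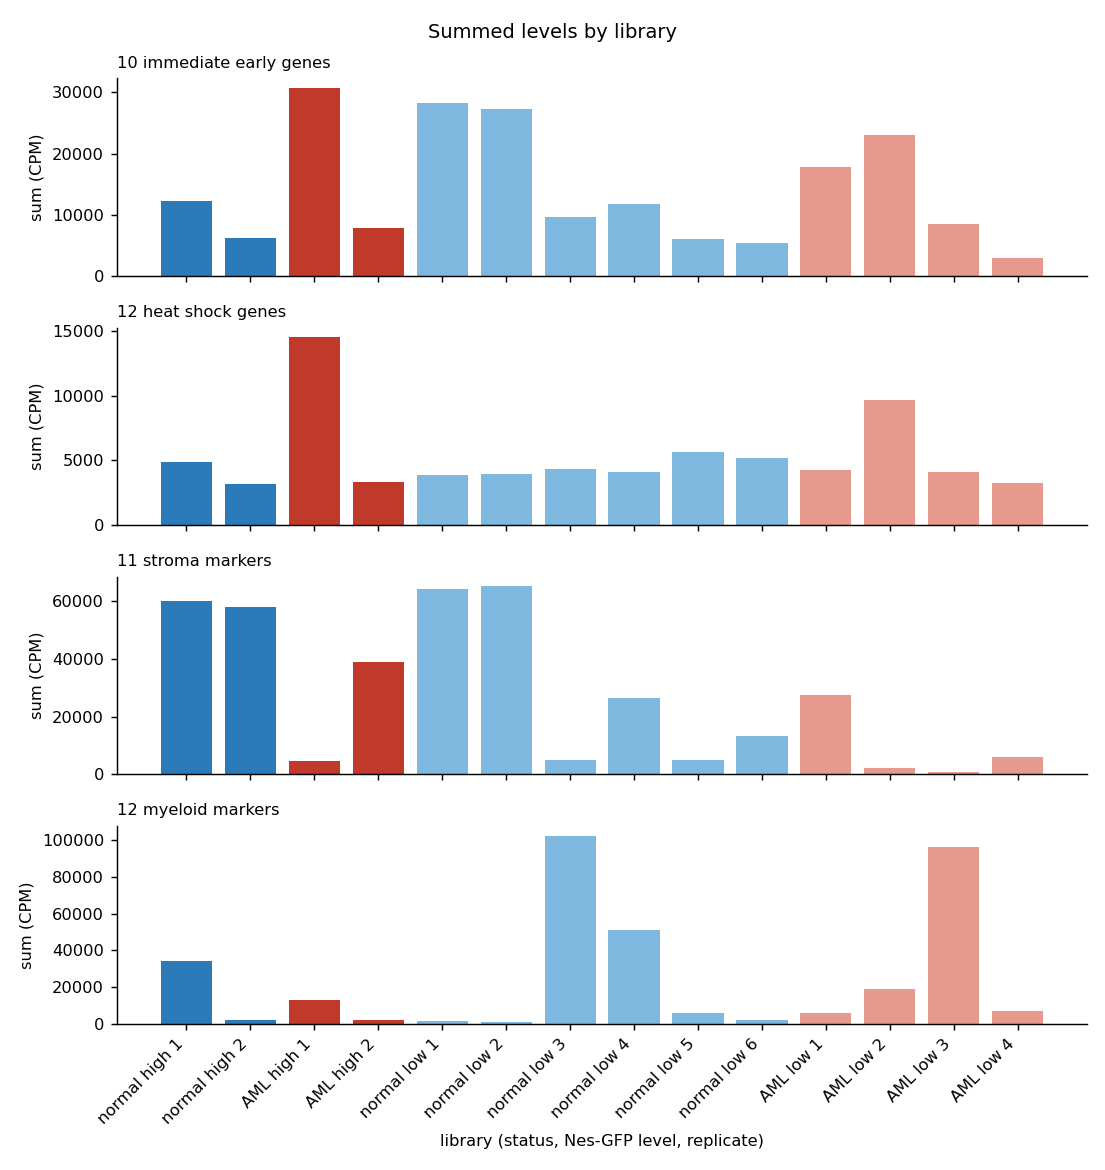
Summed CPM in each library (bars from 0) of the 10 immediate early genes, 12 heat shock genes, 11 stroma markers and 12 myeloid markers, colored by group. The 2 tallest heat shock bars (14510 and 9632 CPM) fall on libraries with tall bars for immediate early genes, while the tallest myeloid bars (102600 and 96220 CPM) fall on libraries with 9711 and 8561 CPM of them.

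Among the 10749 genes whose mean reached 10 CPM, the 10 most like the members' mean in rank over the 14 libraries were Gadd45b (rho 0.978), Tob1 (0.956), Cnpy4 (0.938), Sertad1 (0.925), Ier3 (0.895), Ppp1r15a (0.895), Rbm18 (0.877), Slain2 (0.877), Ppp1r10 (0.873) and Mgrn1 (0.851). All 10 were highest in AML Nes-GFP high replicate 1. Gadd45b, a stress sensor that activates MAP kinase signaling, ranged from 37.15 to 684.8 CPM, and Ier3, an early response gene that modulates survival signals, from 113.3 to 1604 CPM. Ppp1r15a, which directs a phosphatase to eIF2α, ranged from 94.67 to 981.7 CPM. Among the wider lists, Btg2 (0.793), Nfkbiz (0.785) and Egr2 (0.780) also followed closely, and so did the HSP40 gene Dnajb1 (0.829). Other genes of the same lists did not follow. Among them were Nr4a2 (-0.156) and Nr4a3 (-0.138) of the early response genes and Hspd1 (-0.424) and Hspe1 (-0.262) of the heat shock genes.

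The other genes of the pathway did not move as a block in Nes-GFP high cells, and edgeR called 0 of them in any comparison. Of 12 other AP-1 proteins and partners tested, 4 had a fitted level above normal in AML mice and 8 below, with a median log2 fold change of -0.20. Of 15 other early response transcription factors, 10 were above and 5 below (median 0.50), and of 21 other early response regulators 16 were above and 5 below (median 0.70), beside 0.08 over all genes. Of 10 other MAP kinase phosphatases, 7 were above, 2 below and 1 at 0, with a median of 2.46, the largest of these lists. Several of these phosphatases had few counts in Nes-GFP high cells, so the size of that median is uncertain. Of 7 other AU-rich element binding proteins 4 were above and 3 below (median 0.34). Of 25 kinases and factors that act upstream of the members, 15 were above and 10 below (median 0.46). Jund, the AP-1 subunit that most cells keep at a steady level, was at 50.67 and 54.82 CPM in AML and at 59.26 and 58.72 CPM in normal Nes-GFP high cells. In Nes-GFP low cells Jund ranged from 13.5 to 70.65 CPM in AML mice and from 27.14 to 120.2 CPM in normal mice. Its span over all libraries was 8.91-fold, beside 8.72-fold for Zfp36, the narrowest of the 10 members.

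Nr4a2, a close relative of Nr4a1, had the smallest unadjusted p among the transcription factors of these lists, and Plk2, a kinase of the early serum response, among the regulators. Nr4a2 was at 20.44 and 81.50 CPM in AML and at 1.009 and 0.284 CPM in normal Nes-GFP high cells. Plk2 was at 177.8 and 39.23 CPM in AML and at 0.378 and 1.702 CPM in normal Nes-GFP high cells. In both genes the 2 groups were apart and normal Nes-GFP high cells lay below all 10 Nes-GFP low libraries, which held 11.06 CPM or more of Nr4a2 and 2.607 CPM or more of Plk2. The log2 fold change was 6.26 for Nr4a2 (standard error 1.42) and 6.69 for Plk2 (standard error 1.48), with an adjusted p = 0.176 for each (edgeR), so neither passed. Both fold changes rest on few counts in the normal Nes-GFP high libraries, so their size is uncertain. Normal Nes-GFP high replicate 1 also had the fewest genes detected, 14842 against 18177 to 20197 in the other libraries, and the part of this was not tested. Per1, a clock gene that cAMP induces, was at 233.0 and 96.57 CPM in AML and at 4.413 and 1.986 CPM in normal Nes-GFP high cells (adjusted p = 0.222, edgeR).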

How the data were processed

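RNA of sorted Nes-GFP+ BMSCs was extracted, amplified by the Smart-seq2 method and sequenced. The submitters' processing notes name Trim Galore 0.4.1, TopHat2 2.1.0, featureCounts and DESeq2 1.14.1 with build mm10. The authors deposited one table of counts per gene symbol, whole numbers that were not normalized. Of its 16 library columns, 2 that match no sample used here were left out, although the design text of the series counts them as Nestin high samples, 1 normal and 1 leukaemic. The labels sort GFP+ CD45- CD31- DAPI- cells, and the study's methods add Ter119.

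Amplified reads without molecular identifiers are not independent molecules, so counting error understates the error of a level. Genes were kept by filterByExpr (minimum count 10), scaled by TMM and fitted in edgeR 4.0.16 with 4 group means and no block. A gene was called at an adjusted p under 0.05. DESeq2 1.42.0, limma 3.58.1 voom with quality weights, other scalings and filters, robust dispersions, a replicate block, only the compared groups and each library left out were the alternatives. The fits were tested on simulated data, where with 2 libraries against 2 edgeR and voom found few even of the genes given the largest fold changes, and DESeq2 made many false calls. An absence of calls in Nes-GFP high cells therefore says little about whether a gene changed. For AML against normal in Nes-GFP low cells, edgeR found 11% of the simulated 8-fold changes and 56% of the 64-fold ones. An absence of calls there is weak evidence too. Libraries of a group were not copies of each other (chi-square per degree of freedom 97.9 to 421).

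The text names all 10 members, up to 4 genes of each other list with the smallest unadjusted p in the comparison described, the 10 genes most like the members, and marker genes. Genes outside this rule (Jund, Btg2, Nfkbiz, Egr2, Nr4a3, Dnajb1, Hspa1a, Hspd1 and Hspe1) were named after their values were seen. The members and all lists were chosen with earlier results of these data known. Positions came from the GENCODE annotation of GRCm38. Promoters came from RefSeq. Python 3.11.15, numpy 2.4.6, pandas 2.3.3, scipy 1.17.1, matplotlib 3.10.9 and R 4.3.3 were used.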

Additional observations from a re-analysis of the deposited data

How the results depend on the processing

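The count of members called was 0 in each of the 5 comparisons under every planned setting run, under the setting without myeloid-rich libraries added after seeing the data, and without each library in turn. Over all tested genes, the main edgeR fit called 0% in each comparison and DESeq2 0.681% to 11%, so 0 of 10 says little about the members. The smallest adjusted p under any setting was 0.355 (Atf3, DESeq2, AML against normal in Nes-GFP high cells). Libraries with the same replicate number in different groups had correlations of deviations across genes from -0.2 to 0.495. Libraries with different numbers were not correlated for comparison, so whether numbers pair the samples was not settled. The labels do not say that they do, and the replicate block is given here only. With the block, the high against low difference turned for Fos (-0.41), Fosb (-0.28), Jun (-0.0919), Egr1 (-0.00922) and Zfp36 (-0.21) in AML mice and for Ier2 in normal mice (-0.65), the AML difference in Nes-GFP low cells turned for Atf3 (-0.0222), and the members' median in normal mice moved to -1.95. For AML against normal in Nes-GFP low cells, Zfp36 was 0.00122 by DESeq2, 0.18 by limma voom, 0.00121 with DESeq2 size factors, 0.12 with library totals alone, 0.00395 without a filter, 0.0392 at a mean of at least 10 CPM and 0.00338 with only the compared groups, and Junb was 0.19 by limma voom, 0.11 with library totals alone and 0.00664 at a mean of at least 10 CPM. limma voom gave -0.23 for Ier2 in high against low cells of normal mice, and -0.0463 for Ier2 and -0.17 for Zfp36 in those of AML mice, where library totals alone gave -0.0107 for Zfp36. The cause was not tested.

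Leaving out each library in turn gave these ranges where a sign changed. For AML against normal in Nes-GFP high cells the log2 fold change ranged from -0.82 to 1.30 for Fos, -0.31 to 2.07 for Fosb, -0.34 to 1.73 for Junb, -0.48 to 2.57 for Ier2, -0.14 to 2.15 for Dusp1 and -0.66 to 1.49 for Zfp36. In Nes-GFP low cells it ranged from -0.79 to 0.0794 for Jun, -0.47 to 0.29 for Junb, -0.83 to 0.12 for Egr1, -0.31 to 1.04 for Atf3 and -0.34 to 0.35 for Zfp36. For high against low in normal mice it ranged from -1.42 to 0.88 for Ier2, -2.38 to 0.30 for Atf3 and -1.29 to 0.10 for Zfp36. In AML mice it ranged from -0.88 to 1.08 for Fos, -0.64 to 1.28 for Fosb, -0.30 to 1.12 for Jun, -0.74 to 1.33 for Junb, -0.51 to 1.38 for Egr1, -1.04 to 1.2 for Ier2, -0.85 to 1.94 for Atf3, -0.94 to 1.36 for Dusp1, -1.06 to 0.93 for Zfp36 and -0.49 to 0.84 for Nr4a1. The difference between populations ranged from -0.34 to 1.80 for Fos, -0.33 to 1.75 for Junb, -1.22 to 1.85 for Ier2, -0.39 to 3.29 for Atf3 and -0.68 to 1.49 for Zfp36. Over all genes, edgeR called more without normal Nes-GFP high replicate 2. That fit left this group without replication, so its calls are not weighed here.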

Other observations

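Early response genes outside the 10 members did not all follow them in AML Nes-GFP high cells. Sik1, a kinase gene that cAMP and CREB induce, was at 5.575 and 2.406 CPM there and at 55.59, 84.60, 169.1 and 115.9 CPM in AML Nes-GFP low cells, with no overlap. Its log2 fold change of high against low was -4.73 (standard error 1.11, adjusted p = 0.314, edgeR), while all 10 members had fitted values above 0. Most other early response genes went with the members in that comparison. Of 21 other regulators 17 were above 0 and 4 below (median 0.575), and of 15 other transcription factors 12 were above and 3 below (median 0.604). Sik1 and Tnfaip3 are named because they had the smallest unadjusted p among these regulators. Tnfaip3, a brake on NF-κB signaling, was at 0.991 and 2.197 CPM in AML Nes-GFP high cells and at 26.71, 94.40, 136.5 and 3.096 CPM in AML Nes-GFP low cells (log2 fold change -5.34, standard error 1.53, adjusted p = 0.419, edgeR). In replicate 1 of the AML Nes-GFP high cells, which held the highest level of 7 members, both of these genes were therefore low. Low levels were not particular to AML mice. Normal Nes-GFP high cells held 25.47 and 5.957 CPM of Sik1 and 31.02 and 2.553 CPM of Tnfaip3. High against low in normal mice was -2.53 (standard error 0.945) for Sik1 and -1.68 (standard error 1.19) for Tnfaip3. There 9 of the 10 members were below 0 as well.

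In both Nes-GFP low groups the libraries numbered 1 and 2 had the highest summed levels of the members, 17790 and 23080 CPM in AML mice and 28270 and 27220 CPM in normal mice. Libraries with higher numbers had 2983 to 11840 CPM. The labels do not say what a number stands for.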
